A study of Mus musculus with 17 samples.

Results

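The 7 genes described here are the clock genes Clock, Per1, Bhlhe40, Nfil3 and Dbp, together with Upp2 and Rgs16. They were chosen by the measured response of the liver to the oil diets, in which Dbp, other clock genes and Upp2 had stood out, and every probe set annotated to 1 of these symbols alone was taken. That gave 11 probe sets, 9 on the first array type (chip A) and 2 on the second (chip B), out of 7542 probe sets for 6137 genes that carry a single symbol. Because the liver diet differences selected the genes, those differences are given below as a description, with no test.

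The circadian clock is a transcriptional feedback loop that runs in nearly every cell. CLOCK, paired with BMAL1, drives genes through E-box elements, and among the products are PER proteins and BHLHE40, which repress that same activation. DBP and NFIL3 act on a shared element, the D-box, as activator and repressor, and carry the rhythm to metabolic genes of the liver, where feeding and fasting also set its phase.

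Male Rj:NMRI mice, an outbred stock, ate a purified diet with 1.1% fungal oil rich in arachidonate, with 1.9% fish oil rich in docosahexaenoate, with both oils, or with neither (control), each oil replacing medium-chain triacylglycerol oil. They were housed 10 per cage with 10 mice per diet, 5 of which were selected, and liver and hippocampus came from the same mice. Death fell on the morning of day 57 or 58, with food left in place overnight. The 17 arrays hold 5 liver RNAs on both chips (1 for each oil diet and 2 controls) and 1 hippocampus RNA per diet, for which chip A was analysed with fungal oil, fish oil and control and chip B with all 4 diets. The labels give no hour of death for any diet and do not say whether the 2 liver controls came from separate animals or pools, so hour, day and cage cannot be told apart from diet, and the spread between the controls may be technical. In whole tissue, fewer cells that express a gene and less RNA per cell cannot be told apart either.

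Intensity is the deposited brightness of a probe set in arbitrary array units, of which some values are negative. Because the units are arbitrary, levels are compared between RNAs and not between probe sets. Each array had a trimmed mean between 146.1 and 149.4, and values under a floor of 15 were read as the floor on the log2 scale. The tissue labels fitted their markers. The 6 measured hepatocyte markers summed to 46749 to 59918 in liver, against 516 to 1051 in hippocampus, and the 6 neuron markers to 43 to 107 in liver, against 6164 to 6228 in hippocampus. The Gapdh 3-prime to 5-prime signal ratio was 1.89 to 3.26 in liver, against 0.840 to 0.947 in hippocampus. The actin ratio was 3.32 to 4.17 in liver, against 1.33 to 1.55 in hippocampus. Neither ratio overlapped between tissues, so what they measure cannot be told apart from tissue in the tissue differences below.

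Clock, the activator of the loop, had 2 probe sets on chip A, and both read lower in liver than in hippocampus. The brighter, second set read 43 with fungal oil and 30 with both oils in liver, against 56 with fish oil and 63 and 61 in the controls. Both RNAs with fungal oil were thus the lowest of the liver RNAs, and the difference from the control mean was -0.53 with fungal oil, -1.05 with both oils (2.07-fold lower) and -0.15 with fish oil on the log2 scale. In hippocampus it read 108 with fungal oil, 122 with fish oil and 121 in the control, a log2 difference of -0.16 for fungal oil. The first, dimmer set read 2, 22 and -7 with fungal oil, both oils and fish oil in liver, against 14 and 17 in the liver controls, values at or near the floor that follow no diet. In hippocampus that set read 34, 40 and 39 with fungal oil, fish oil and control.

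Per1, a repressor of CLOCK and BMAL1 whose transcript also answers acute signals, was read by 2 probe sets of chip A that disagreed. The first read 248 with fungal oil and 196 with both oils in liver, against 207 with fish oil and 175 and 157 in the controls. All 3 oil RNAs exceeded both controls, by 0.58 with fungal oil, 0.24 with both oils and 0.32 with fish oil on the log2 scale, so the RNAs with and without fungal oil overlapped. In hippocampus the first set read 217 with fungal oil, against 125 with fish oil and 123 in the control. The fungal-oil hippocampus therefore stood above the other 2 RNAs, 1.76-fold over the control. The second set lay below the floor in every liver RNA (-7 to 8) and read 28 with fungal oil, 38 with fish oil and 44 in the control in hippocampus, so there the order was the opposite of that of the first set.

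Bhlhe40, an E-box repressor also known as DEC1, was followed mainly on chip B, where its probe set was bright in both tissues. It read 365 with fungal oil and 440 with both oils in liver, against 263 with fish oil and 248 and 224 in the controls. The RNAs with fungal oil did not overlap those without it, and the log2 differences from control were 0.63 with fungal oil, 0.90 with both oils and 0.16 with fish oil. In hippocampus the 4 RNAs were nearly level, at 249 with fungal oil, 249 with fish oil, 255 with both oils and 244 in the control. The chip A set was dim, with 66 and 41 in the liver RNAs with fungal oil and both oils, against 10 with fish oil and 26 and 23 in the controls. In hippocampus it read 33 with fungal oil and 27 with fish oil, against 14 in the control, which is below the floor.

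Nfil3, the D-box repressor, read 53 with fungal oil and 36 with both oils in liver, against 63 with fish oil and 54 and 84 in the controls. The RNAs with fungal oil lay below the other 3, but for fungal oil alone the gap to the nearer control was 1 unit of intensity, and the controls themselves differed by 0.64 on the log2 scale. In hippocampus Nfil3 read 24, 19 and 18 with fungal oil, fish oil and control, just above the floor.

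Dbp, the D-box activator, whose transcript is among the most strongly rhythmic in liver, had 1 probe set. It read 581 with fungal oil and 747 with both oils in liver, against 174 with fish oil and 176 and 162 in the controls. Fish oil lay between the 2 controls, and the RNAs with fungal oil lay far above all 3 others, 3.44-fold over the control mean with fungal oil and 4.42-fold with both oils. Dbp held rank 62 from the highest of 6537 probe sets compared in liver for fungal oil and rank 56 for both oils. In hippocampus it read 206 with fungal oil, against 84 with fish oil and 111 in the control. The fungal-oil hippocampus was again the highest RNA, 1.86-fold over the control, which was rank 246 of 6538. Fish oil was lower than control there, by -0.40 on the log2 scale.

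Upp2, a uridine phosphorylase that splits uridine into uracil and ribose 1-phosphate, behaved like Dbp in liver. It read 2044 with fungal oil and 1779 with both oils, against 687 with fish oil and 806 and 812 in the controls. The controls differed by 0.01 on the log2 scale, and the fold over their mean was 2.53 with fungal oil and 2.20 with both oils, while fish oil gave -0.24 on the log2 scale. In hippocampus Upp2 was dim, at 44 with fungal oil, 38 with fish oil and 29 in the control.

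Rgs16 encodes a regulator of G protein signalling that speeds the return of Gi and Gq proteins to their resting state. Its chip A set read 350 with fungal oil and 688 with both oils in liver, against 236 with fish oil and 300 and 324 in the controls. Its chip B set read 157 with fungal oil and 237 with both oils, against 67 with fish oil and 101 and 141 in the controls. Both sets put the RNAs in the same order, with both oils highest and fish oil lowest, and with fungal oil only slightly above the higher control. The log2 differences from control on chips A and B were 1.14 and 0.99 with both oils, 0.17 and 0.40 with fungal oil and -0.40 and -0.83 with fish oil. In hippocampus the chip A set read 138, 139 and 156 with fungal oil, fish oil and control, and the chip B set read 55, 56, 42 and 48 with fungal oil, fish oil, both oils and control, with no such order.

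**Figure D1:**
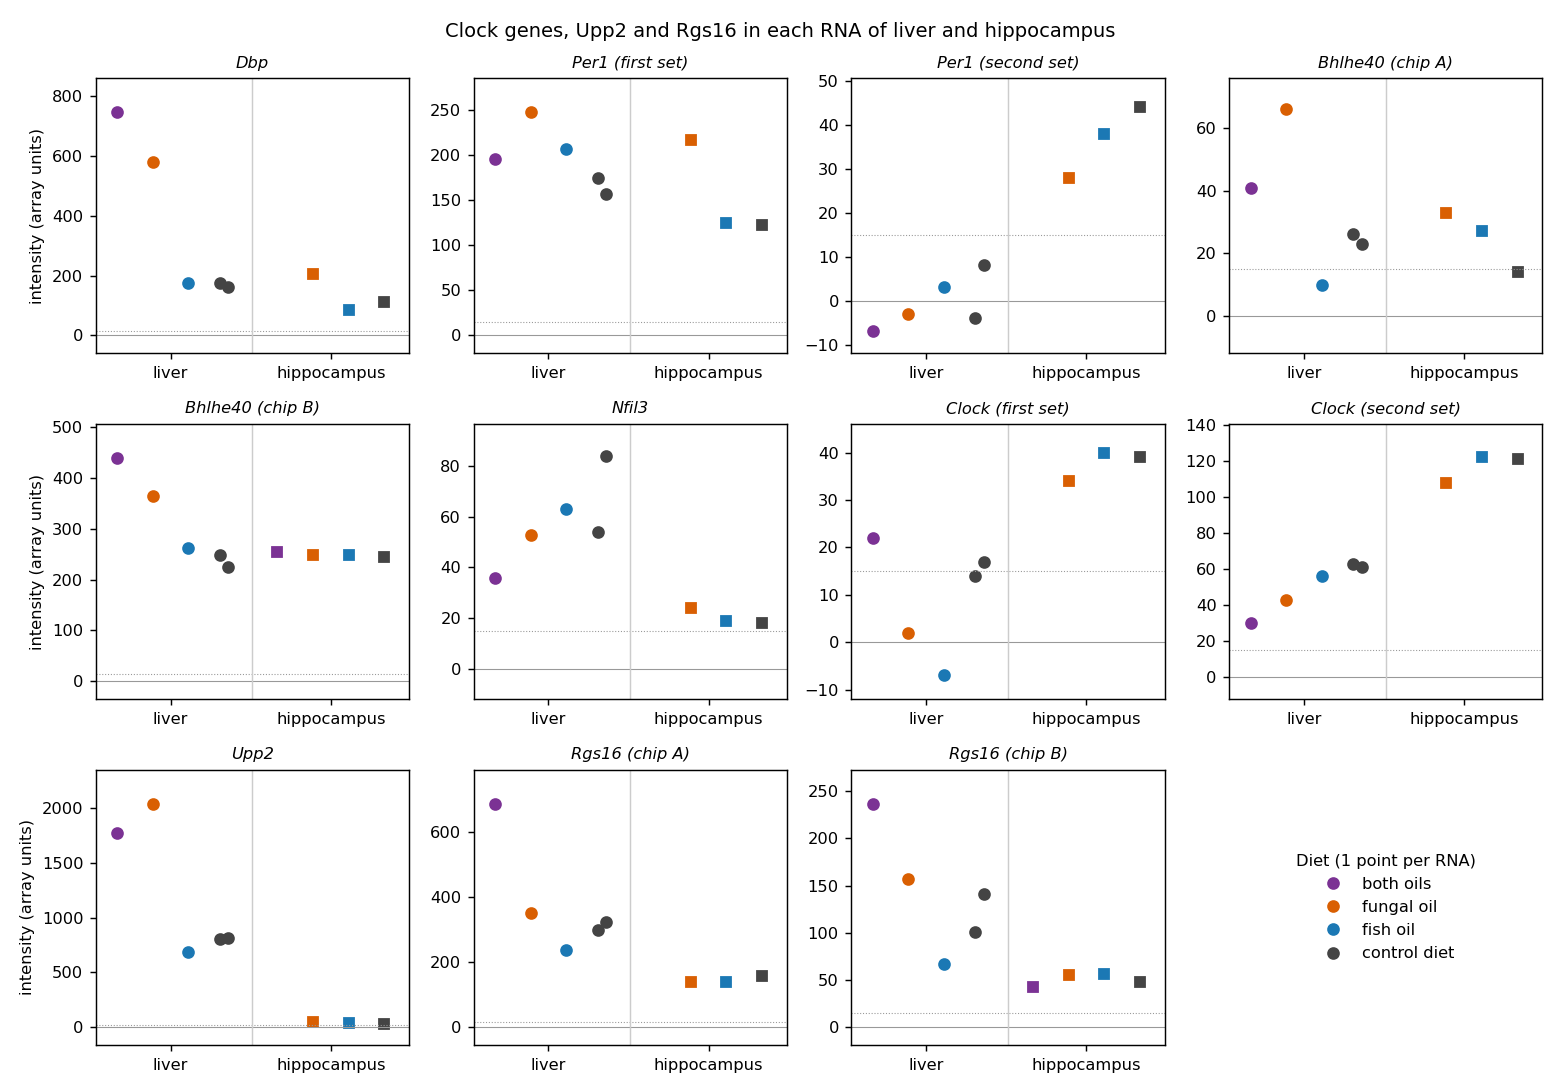
Intensity (array units, linear axis, 1 point per RNA) of each of the 11 probe sets in liver (left, circles) and hippocampus (right, squares), coloured by diet, with the floor of 15 as a dotted line. Dbp and Upp2 show the RNAs with both oils and fungal oil far above fish oil and control in liver, and Upp2 stays under 45 in hippocampus.

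Set against all probe sets, the liver counts were as follows, for the 8 probe sets of these genes whose liver mean reached the median of their chip. With fungal oil, Upp2 and Dbp were at least 2-fold above the control mean and above both controls, 2 of 8, where 3.81% of all probe sets were, and 0 were 2-fold lower (5.29% of all). With both oils 3 of 8 were higher (Upp2, Dbp and Rgs16 on chip A, 5.14% of all) and 1 lower (the brighter Clock set, 4.86% of all). With fish oil 0 were higher (4.60% of all) and 0 lower (5.78% of all). These contrasts selected the genes, so nothing is read from the shares. The 2 controls differed at least 2-fold in 0 of the 8 sets, against 10.5% of all. The median log2 difference from control over the 8 sets was 0.49 with fungal oil, 0.95 with both oils and -0.12 with fish oil, beside -0.01, 0.05 and 0.01 over all 6537 probe sets.

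**Figure D2:**
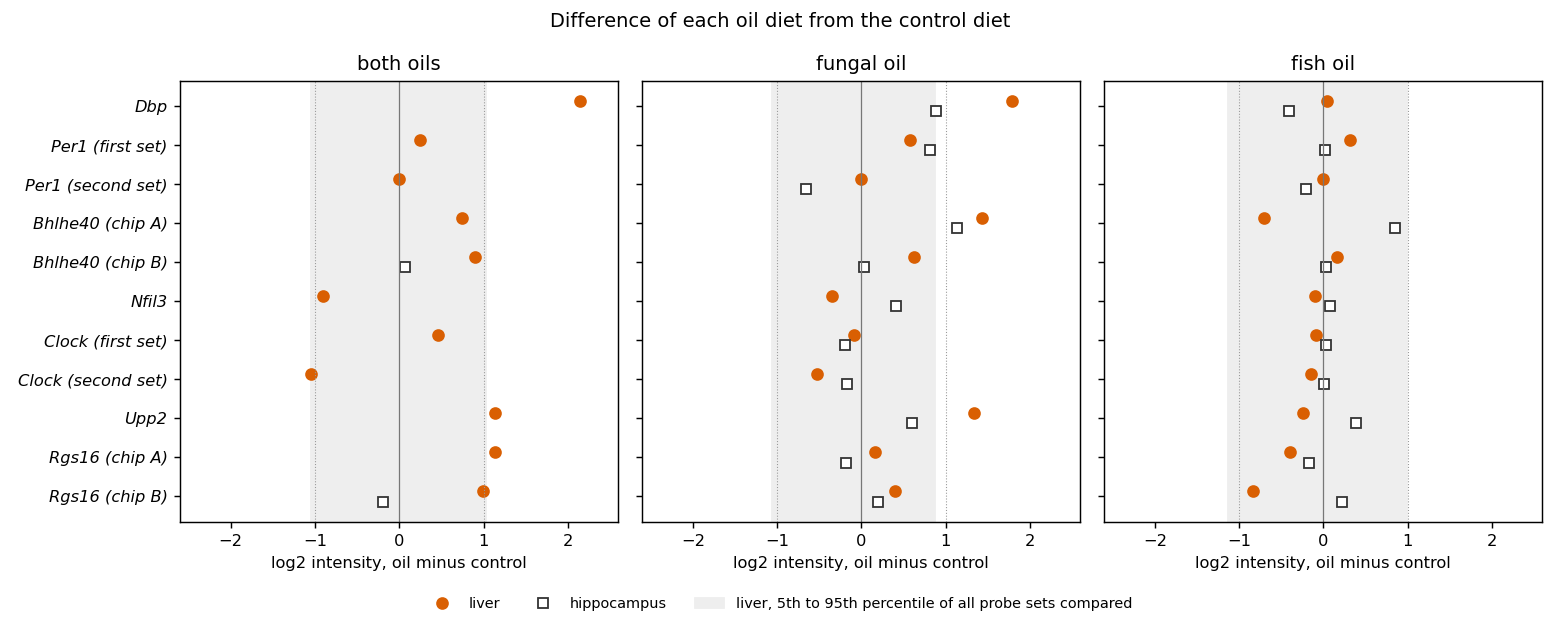
Log2 intensity of each oil diet minus control (the mean of both controls in liver), for liver (filled circles) and hippocampus (open squares), with the 5th to 95th percentile of all liver probe sets shaded and 2-fold as dotted lines. Dbp and Upp2 lie right of the band in liver with both oils and with fungal oil, and fish oil leaves the liver points between -0.83 and 0.32.

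Fungal oil could be read in liver with and without fish oil. Fungal oil against control and both oils against fish oil share no array, although an earlier additive analysis of these same RNAs had already brought Dbp and Upp2 forward. Dbp differed by 1.78 in the first comparison and 2.10 in the second on the log2 scale, and Upp2 by 1.34 and 1.37. Rgs16 was uneven, at 0.17 and 1.54 on chip A and 0.40 and 1.82 on chip B, as was the brighter Clock set, at -0.53 and -0.90. For the first Per1 set the values were 0.58 and -0.08. In a grouping made after seeing the data, both RNAs with fungal oil were above all 3 without it for 6 of the 11 probe sets and below for 2, and 3 overlapped. Among the 8 brighter sets this was 5 above, where 10.7% of all probe sets were, and 2 below, where 10.5% of all were. The responses of these same liver RNAs selected the genes, so nothing is read from these shares either.

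**Figure D3:**
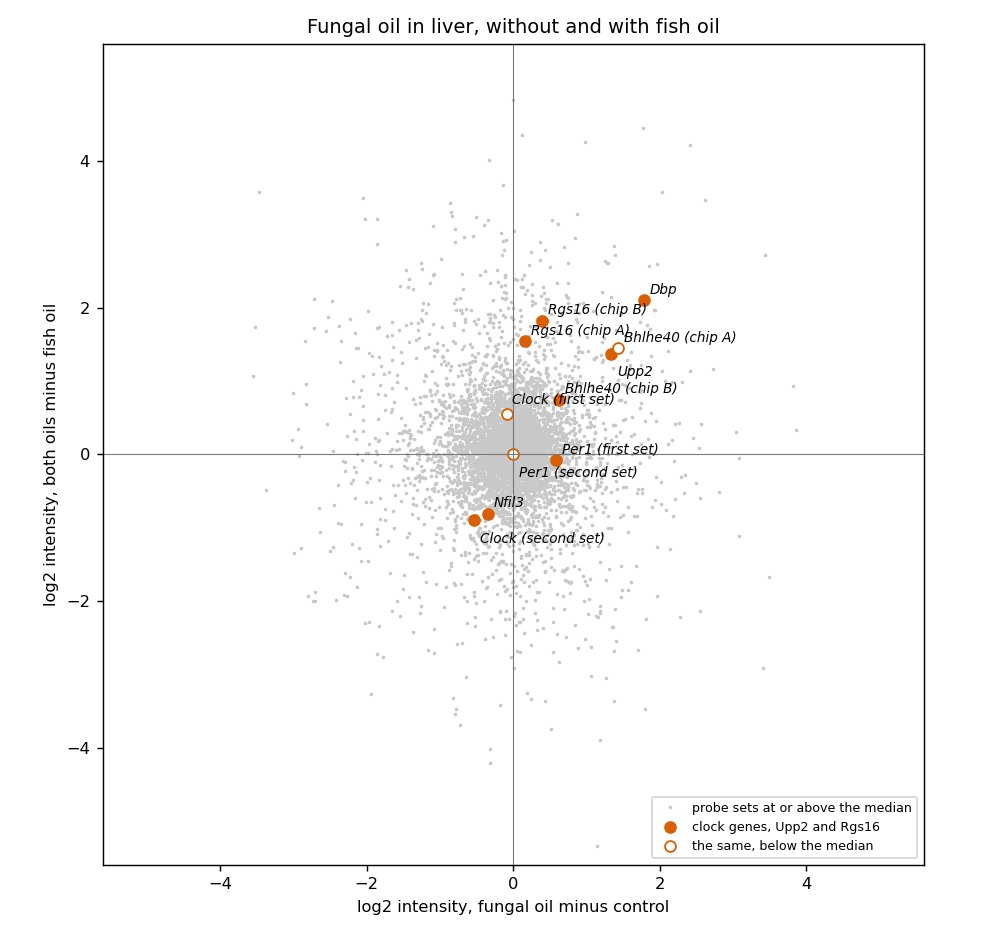
Each point is a probe set in liver, with log2 intensity of fungal oil minus control on the horizontal axis and of both oils minus fish oil on the vertical axis, all probe sets at or above the median in grey and the clock genes, Upp2 and Rgs16 in orange (open where dimmer). Dbp and Upp2 lie near the diagonal at upper right, and the Rgs16 sets lie high with little shift to the right.

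The summed intensity of markers of another cell type also moved with fungal oil in liver. The 5 macrophage and Kupffer cell markers summed to 619 with fungal oil and 711 with both oils, against 845 with fish oil and 1018 and 1048 in the controls, so both RNAs with fungal oil lay below the other 3. Lyz2, the brightest, read 262 with fungal oil and 285 with both oils, against 502 with fish oil and 472 and 376 in the controls. Among the other markers, Cd5l, Clec4f and Cd68 did not keep this order. Cd5l read 147 with fungal oil and 214 with both oils, against 127 with fish oil. Clec4f read 132 and 93, against 90 with fish oil, and Cd68 read 67 and 119, against 106. Csf1r kept the order, at 11 with fungal oil and -60 with both oils, which are below the floor. It was dim in the other liver RNAs too, at 20 with fish oil and 30 and 53 in the controls. The hepatocyte sum was 53774 with fungal oil and 53768 with both oils, against 59918 with fish oil and 56718 and 46749 in the controls, and so did not follow fungal oil. The Gapdh ratio on chip A was 2.48 with fungal oil and 1.89 with both oils, against 1.95 with fish oil and 2.07 and 1.91 in the controls, which put the 2 RNAs with fungal oil at opposite ends of the range. The 4 endothelium markers summed to 251 with fungal oil and 510 with both oils, against 408 with fish oil and 572 and 457 in the controls, so fungal oil alone was lowest, and Pecam1 among them was below the floor in every liver RNA. The part of macrophage and endothelial content in these results was not tested.

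In hippocampus, with 1 RNA per diet and so no test, 6 probe sets reached the median of their chip on the arrays of fungal oil and fish oil. None of the 6 was 2-fold from control with fungal oil (5.26% of all probe sets were) or with fish oil (5.83%), and neither of the 2 chip B sets was with both oils (6.14%). At 1.5-fold, a threshold added after seeing the data, Dbp and the first Per1 set were higher with fungal oil, 2 of 6, where 7.86% of all were. The median over the 6 sets was 0.11 with fungal oil and 0.02 with fish oil, beside 0.00 and 0.02 over all 6538 probe sets. Fungal oil was thus the diet with the highest Dbp of the single oils in both tissues, while Bhlhe40 on chip B and both Rgs16 sets lay between -0.18 and 0.20 from control in hippocampus with that oil. Whether the tissues differ in this was not tested. The 3 choroid plexus markers summed to 750 with fungal oil, 276 with fish oil and 449 in the control, the same order as Dbp, and Folr1 among them read 39 with fungal oil and below 0 in the other 2. The part of choroid plexus in the Dbp and Per1 values was not tested.

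Liver was compared with hippocampus of the same diet by limma with diet as a covariate, on 6535 probe sets, with a call at a Benjamini-Hochberg adjusted p under 0.05 and at least 2-fold. Of the 11 probe sets 7 were bright enough to be tested. Upp2, Dbp and both Rgs16 sets were called higher in liver, 4 of 7, where 19.4% of all probe sets were, and the brighter Clock set was called lower, 1 of 7, where 31.0% of all were. The liver RNAs that selected the genes also enter this comparison, so values without the fungal-oil RNA of either tissue are given beside it. On chip B the RNA with both oils stays in those values, so values without that RNA are given as well. Upp2 reached the brightness filter through liver alone, so nothing is read from its call and its values are given as a description. On chip A the liver RNA with both oils has no hippocampus partner and adds nothing to the difference.

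Upp2 averaged 1226 in liver and 37 in hippocampus, and the groups did not overlap. The log2 difference was 4.85 (SE 0.23, higher in 3 of 3 diets), a 28.8-fold excess, and 4.55 without the fungal-oil RNA of either tissue. By diet the excess was 46.5-fold with fungal oil, 18.1-fold with fish oil and 27.9-fold with control. Rgs16 averaged 379.6 in liver and 144.3 in hippocampus on chip A, and 140.6 and 50.2 on chip B, again without overlap. Its log2 differences were 1.04 (SE 0.13, limma adjusted p = 0.000681, 3 of 3 diets) and 1.41 (SE 0.35, limma adjusted p = 0.00961, 4 of 4 diets). Without the fungal-oil RNA of either tissue these were 0.91, which is below 2-fold, and 1.38. Without the both-oils RNA of either tissue the chip B difference was 1.08. On chip B the excess was 5.64-fold with both oils, 2.85-fold with fungal oil, 1.20-fold with fish oil and 2.49-fold with control.

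Dbp averaged 368 in liver and 133.7 in hippocampus, but the fungal-oil hippocampus, at 206, lay above the liver of fish oil and of both controls, so the groups overlapped. The log2 difference was 1.02 (SE 0.19, limma adjusted p = 0.00325, higher in 3 of 3 diets), just past 2-fold. It dropped to 0.81 without the fungal-oil RNA of either tissue and to 1.00 without the fish-oil RNA of either, and with tissue alone in the fit the adjusted p was 0.0813, so this call rests on single RNAs. By diet the liver excess of Dbp was 2.82-fold with fungal oil, 2.07-fold with fish oil and 1.52-fold with control, and whether these differ was not tested. The first Per1 set was 0.46 higher in liver (SE 0.15, limma adjusted p = 0.0323, 3 of 3 diets), which is under 2-fold, and with tissue alone in the fit the adjusted p was 0.143. Bhlhe40 on chip B differed by 0.34 (SE 0.17, limma adjusted p = 0.123, higher in liver in 3 of 4 diets). Without the fungal-oil RNA of either tissue the differences were 0.57 for Per1 and 0.26 for Bhlhe40. Without the both-oils RNA of either tissue the Bhlhe40 difference was 0.19.

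Clock went the other way. Its brighter set averaged 50.6 in liver and 117 in hippocampus with no overlap, a log2 difference of -1.11 (SE 0.17, limma adjusted p = 0.00171, lower in liver in 3 of 3 diets), or 2.16-fold lower, and -1.02 without the fungal-oil RNA of either tissue. Under quantile normalization the difference was -0.77, which is under 2-fold. The median of all tested probe sets was -0.29, and -0.09 under that normalization. Of the 4 probe sets too dim for the test, Nfil3 averaged 58 in liver and 20.3 in hippocampus with no overlap, and the dim Clock set was below every hippocampus RNA in every liver RNA. The second Per1 set, at the floor in all 5 liver RNAs, was at least 2.40-fold lower in liver, while the chip A Bhlhe40 set overlapped between tissues.

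**Figure D4:**
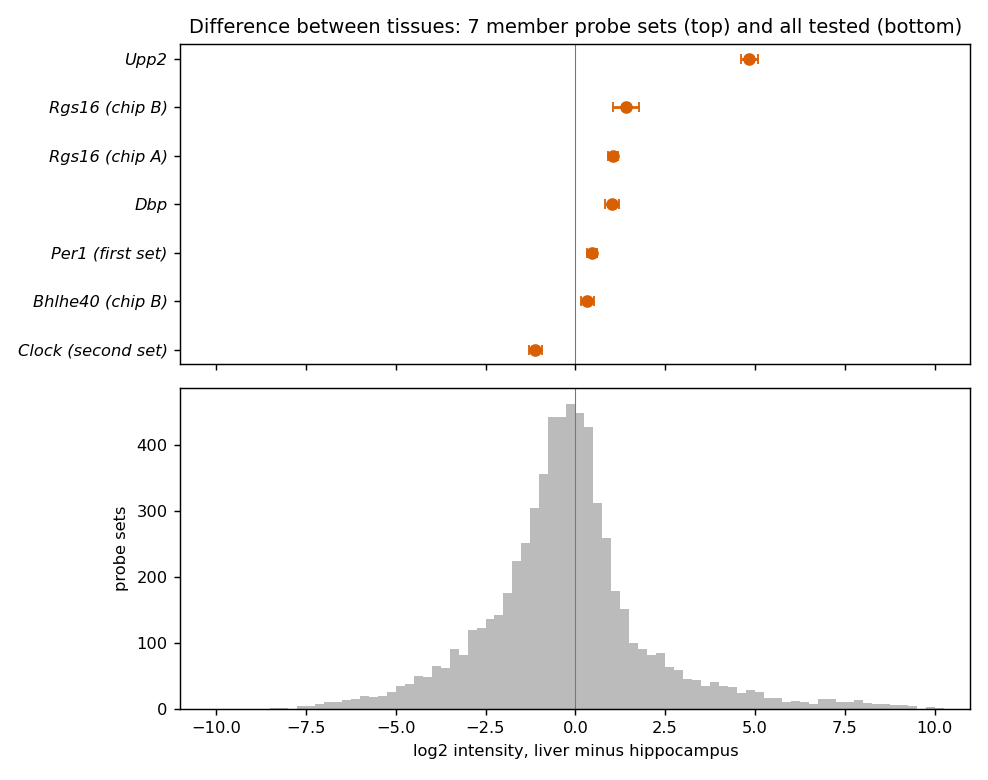
Top, log2 intensity of liver minus hippocampus with its standard error for the 7 tested probe sets of the clock genes, Upp2 and Rgs16, from the limma fit. Bottom, the number of probe sets at each difference over all 6535 tested, which shows Upp2 (4.85) in the right tail and the other 6 sets between -1.11 and 1.41.

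The wider clock was thinly measured. Of 22 other clock genes listed, 7 were on the arrays with a symbol of their own and 2 were bright enough for the tissue test. Csnk1d, a kinase that marks PER proteins for turnover, was 1.01 lower in liver on the log2 scale (limma adjusted p = 0.000412), and Rora, which activates the gene for BMAL1, was higher in liver but not by 2-fold (0.66, limma adjusted p = 0.0214). Neither gene was 2-fold from control in the liver of any diet. The third by brightness was Btrc, part of the ligase that degrades PER, whose liver values ran from -85 with fish oil to 66 with both oils.

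For 14 genes listed as targets of the DBP family in mouse liver, 9 were measured. Between tissues 5 were bright enough to be tested, of which Cyp2c29, Nr1i3 and Cyp7a1 reached the filter through liver alone, and nothing is read from their calls. The other 2, Alas1 and Ppara, were higher in liver by 2.09 and 4.35 on the log2 scale (limma adjusted p = 0.000527 and 0.000182). Cyp2c29, a cytochrome P450, read 6559 with fungal oil and 6107 with both oils in liver, against 7384 with fish oil and 5191 and 4996 in the controls, so it was above control with every oil. Alas1, which starts haem synthesis in hepatocytes, read 4573 with fungal oil and 3355 with both oils, against 2265 with fish oil and 1299 and 1177 in the controls. Both RNAs with fungal oil were the highest here too, but fungal oil exceeded both oils and fish oil stood above the controls, and in hippocampus it stayed between 538 and 618. Ppara, the nuclear receptor that switches on fatty acid oxidation, read 1626 with fungal oil and 1175 with both oils, against 1243 with fish oil and 1158 and 1325 in the controls. Of the 6 that reached the chip median in liver, 2 were above every RNA without fungal oil in both RNAs with it. These were Alas1 and Nr1i3, the gene of a drug-sensing nuclear receptor, where 10.7% of all probe sets were above. The median difference of the 6 from control was 0.61 with fungal oil, 1.02 with both oils and 0.70 with fish oil.

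Around Upp2, 13 of 21 listed genes of pyrimidine and uridine metabolism were measured and 8 tested between tissues. In liver 2 were called higher, where 19.4% of all probe sets were, and 1 lower, where 31.0% of all were. Slc29a1, a nucleoside transporter, read 524 with fungal oil and 563 with both oils in liver, against 736 with fish oil and 578 and 740 in the controls, and was below 0 in every hippocampus RNA, so it reached the filter through liver alone. Cmpk1, which phosphorylates UMP and CMP, read 277 with fungal oil and 278 with both oils, against 321 with fish oil and 264 and 253 in the controls. Ctps, which makes CTP from UTP, was lower in liver than in hippocampus (-1.19, limma adjusted p = 0.00200). Of the 9 that reached the chip median in liver, 1 was above and 3 were below all RNAs without fungal oil in both RNAs with it. Over all probe sets 10.7% were above and 10.5% below. The sister enzyme Upp1 read between 3 and 29 in liver.

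In the family of Rgs16, 5 of 17 listed genes were measured and 2 tested, and Rgs14, a regulator enriched in neurons, was called lower in liver (-2.14, limma adjusted p = 6.00e-05). Rgs2 differed by -0.02 between tissues, and Rgs5 was too dim for the test. In liver 0 of the 4 that reached the chip median put both RNAs with fungal oil outside those without. Over all probe sets 10.7% were above and 10.5% below. Of 11 glucocorticoid-induced genes, listed because the same hormone also drives Per1, 8 were measured and 7 tested. Of the 7, 3 were called lower in liver, where 31.0% of all probe sets were, and 0 higher, where 19.4% of all were. Mt1 is 1 of the 3 and reached the filter through hippocampus alone, so nothing is read from its call. The metallothionein Mt2 read 369 with fungal oil and 504 with both oils in liver, against 305 with fish oil and 300 and 238 in the controls. Its relative Mt1 had a liver mean below 0. Fkbp5, a partner of the receptor's chaperone, read 142 with fungal oil and 200 with both oils. With fish oil it read 176 and in the controls 126 and 151, so those RNAs overlapped. Of the 6 that reached the chip median in liver, 1 was above and 1 below all RNAs without fungal oil in both RNAs with it. Over all probe sets these shares were 10.7% and 10.5%. Mt2 was the 1 above and Sgk1 the 1 below. Sgk1 read 65 with fungal oil and 43 with both oils, against 94 with fish oil and 101 and 95 in the controls.

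Likeness to Dbp and to Upp2 in liver was measured as the root mean square difference between log2 profiles over the 5 RNAs, each centred on its own mean, among 4078 single-symbol probe sets that reached their chip median. Nearest to Dbp, whose own profile has a root mean square of 0.96, were Sox4 (0.20), Ube2s (0.33), Tk1 (0.34) and Il6ra (0.36). Nearest to Upp2, with 0.65, were Oprd1 (0.19), Tnxb (0.20), Saysd1 (0.21) and Ube2s (0.23). Ube2s, a ubiquitin-conjugating enzyme, was on both lists and was the brightest of these genes, at 466 with fungal oil and 582 with both oils, against 227 with fish oil and 190 and 217 in the controls. Sox4, a transcription factor, was dim, at 62 with fungal oil and 91 with both oils, against 13 with fish oil and 0 and 17 in the controls. In hippocampus Ube2s ran otherwise, at 204 with fungal oil, 357 with fish oil and 451 in the control. With 5 RNAs such likeness is a description.

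Promoters of 6 of the 7 genes, 10 windows from 250 bases before to 50 after a start, were taken from RefSeq on GRCm38.p6, because these elements carry the clock's output. Both strands were searched for the E-box CACGTG (7.15% of 32851 promoters), the D-box as TTATGTAA or TTACGTAA (1.06%), the cyclic AMP element TGACGTCA (1.79%) and the orphan receptor element TAGGTCA (2.61%). A match was found in 2 windows and none in the other 8. The first Per1 start held an E-box 166 bases upstream, written as position -166, and Nfil3 held TAGGTCA, read on the opposite strand as tgaccta, at -12. The windows of these matches follow, with Dbp and the second Upp2 start as the genes with the largest liver differences. Capitals mark the match, and the start that each probe set measures is not known.
Per1, chr11:69098699-69098998, plus strand: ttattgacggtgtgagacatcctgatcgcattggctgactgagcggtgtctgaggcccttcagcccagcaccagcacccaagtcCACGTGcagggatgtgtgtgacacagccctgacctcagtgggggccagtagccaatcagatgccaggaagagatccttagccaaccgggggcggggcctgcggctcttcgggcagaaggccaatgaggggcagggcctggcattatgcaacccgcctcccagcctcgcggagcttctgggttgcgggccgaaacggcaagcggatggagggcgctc
Nfil3, chr13:52980990-52981289, minus strand: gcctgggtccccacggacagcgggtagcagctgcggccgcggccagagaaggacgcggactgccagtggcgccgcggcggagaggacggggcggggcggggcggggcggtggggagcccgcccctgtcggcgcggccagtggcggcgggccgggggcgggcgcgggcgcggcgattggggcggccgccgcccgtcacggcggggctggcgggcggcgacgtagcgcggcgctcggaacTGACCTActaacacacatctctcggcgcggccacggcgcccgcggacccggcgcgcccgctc
Dbp, chr7:45704997-45705296, plus strand: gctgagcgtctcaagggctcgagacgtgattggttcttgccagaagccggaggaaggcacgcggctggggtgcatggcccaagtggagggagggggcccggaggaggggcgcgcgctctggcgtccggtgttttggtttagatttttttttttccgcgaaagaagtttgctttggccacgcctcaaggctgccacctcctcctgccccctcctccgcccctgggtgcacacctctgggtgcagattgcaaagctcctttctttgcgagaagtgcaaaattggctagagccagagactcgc
Upp2, chr2:58754934-58755233, plus strand: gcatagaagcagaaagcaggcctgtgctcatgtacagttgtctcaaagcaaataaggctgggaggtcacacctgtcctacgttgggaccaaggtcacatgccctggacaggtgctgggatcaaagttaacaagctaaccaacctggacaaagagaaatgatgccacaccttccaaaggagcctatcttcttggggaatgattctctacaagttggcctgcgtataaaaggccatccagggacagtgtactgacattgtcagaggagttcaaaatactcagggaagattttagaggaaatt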

How the data were processed

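Liver (5 RNAs) was analysed on both array types, while hippocampus had 3 RNAs analysed for chip A and 4 for chip B. The values the authors deposited are intensities in whole numbers, 1 for each probe set of an array, and some are below 0. Their software, background correction and scaling were not given in the sources used here. The members and gene lists were chosen with earlier results of these data known.

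The 55 control probe sets of each chip were not tested. Names come from the platform annotation where it gives 1 symbol, 5541 of 6529 on chip A and 2001 of 6540 on chip B. Each array was scaled to a trimmed mean of 150 (2% off each end) for the tissue comparison, values under 15 were set to 15, and log2 was taken. A probe set was compared if its mean, in a tissue or over both tissue means, reached its chip's median.

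Tissues were compared with limma 3.58.1 (R 4.3.3), as lmFit on tissue and diet per chip with 3 and 4 residual degrees of freedom, and eBayes with an intensity trend, adjusted over both chips by the Benjamini-Hochberg method. P-values measure the spread between these RNAs, including that between the 2 liver controls, which may be technical. In simulated data of 6535 probe sets, the fit recovered 91.0% of 2-fold and 99.0% of 4-fold changes at an adjusted p under 0.05. False calls numbered 6.8 on average. That simulation left out the 2-fold threshold and the floor, and its noise depended on brightness alone. Its rates therefore do not describe the calls reported here. Liver and hippocampus oil differences were not tested. Where a gene list had several probe sets for a gene, the brightest was used. At most 3 genes of a list were named, the brightest. Others were named after their values were seen: Nr1i3, Cyp7a1, Umps, Upp1 and Sgk1 in the lists, and Clec4f, Csf1r, Pecam1 and Folr1 among markers. The number of arrays limits the precision.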

Additional observations from a re-analysis of the deposited data

How the results depend on the processing

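Of 7 tested probe sets of the clock genes, Upp2 and Rgs16, 5 were called between tissues. The count was 8 of 11 with no filter on dim probe sets, 3 of 4 when only sets from the 75th percentile of brightness up were kept (the bright subset), and 3 to 5 when each RNA was left out. Over all probe sets 3292 were called, 1760 in the bright subset and 3153 to 3315 when each RNA was left out. For single sets, 101 alternative values stayed on their side of the threshold and 8 fell short of it, 5 of them for Dbp (tissue without diet, or without the fungal-oil or fish-oil RNA of either tissue), 2 for Rgs16 on chip A (without the fungal-oil RNA of either tissue) and 1 for Clock (quantile normalization). In liver, 6 differences of these genes from control were 2-fold (1928 over all probe sets). The count was 5 under quantile normalization, at 2.5 times the floor and in the bright subset (1904, 1176 and 305 over all). It was 7 with no filter (3527 over all). Without the first and second control it was 8 and 7 (2424 and 2509 over all), and at 1.5-fold it was 11 (4329 over all). In hippocampus 0 were 2-fold (926 over all), 1 with no filter (2529 over all) and 2 at 1.5-fold (2432 over all). The 1.5-fold threshold was chosen after seeing the data. Of the 8 places among the genes nearest to Dbp or Upp2, in which Ube2s appears for both, 5 were held by the same gene at 2.5 times the floor. No called difference changed sign. Uncalled differences near 0 did in 5 cases: in liver with fish oil, without the second control, Nfil3 (0.22, against -0.10 as reported) and Dbp (-0.02, against 0.04), and in hippocampus under quantile normalization, Bhlhe40 on chip B with fungal oil (-0.00) and fish oil (-0.05, against 0.03 for each) and the second Clock set with fish oil (-0.00, against 0.01). The cause of these changes was not tested. Signal over background limits the dim sets of Bhlhe40, Per1, Clock and Nfil3, whose values move with the floor. The reported fit is paired by diet, since diet as a covariate matches the tissues of the same diet, and single mice are not matched. Without that pairing 4 of the 7 sets and 3278 of all probe sets were called.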

Other observations

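Umps, the enzyme that makes UMP at the end of pyrimidine synthesis, was picked out after its values were seen. Its brightest of 3 probe sets ran opposite to Upp2 in liver, at 100 with fungal oil and 169 with both oils, against 271 with fish oil and 300 and 222 in the controls. In hippocampus it read 70 with fungal oil and 69 with fish oil, against 101 in the control. The other 2 probe sets were below the median of the chip in liver.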
